A study of Homo sapiens with 16 samples.

Results

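The genes described here are 33 protein-coding genes of the primary cilium and of polycystic disease, out of 19974 protein-coding genes on chromosomes 1 to 22 and X. They were taken from a list of names and hold 4 polycystic disease genes, 11 subunits of the intraflagellar transport complex IFT-B, 3 of IFT-A, 1 transport motor, 6 BBSome subunits, 2 chaperonin-like BBS genes and 6 genes of the transition zone and the inversin compartment. The cells were H69, an immortalised human cholangiocyte line, that is, epithelial cells of the bile duct. The groups were vehicle and TGF beta (recombinant, human, 10 ng/ml), each given for 16 h before the cells were crosslinked and examined by chromatin immunoprecipitation and sequencing (ChIP-seq) for SMAD3, H3K27ac and H3K9ac. Each of the 6 combinations of treatment and antibody had 2 libraries, numbered 4 and 5 for SMAD3 and 1 and 2 for both acetylation marks. The labels do not say whether the libraries of a group came from separate cultures, so p-values measure only the spread between these libraries.

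The primary cilium is a single, non-motile projection of the cell surface, and on cholangiocytes it reaches into the duct lumen and senses bile flow, osmolarity and bile composition. IFT-B and IFT-A carry cargo along it toward the tip and back, the BBSome moves membrane proteins in and out, and the transition zone gates its base. Loss of polycystin or fibrocystin function gives cysts of kidney and bile duct. SMAD3 is the transcription factor that an activated TGF-beta receptor phosphorylates, and H3K27ac and H3K9ac are histone acetylation marks of active promoters and, for H3K27ac, of active enhancers.

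The deposited files list peaks and hold no read counts, so the depth behind each value is unknown. The value of a gene in a library was the number of bases inside peaks within the gene span and 10 kb on each side, called its peak length. Peaks numbered 22451 to 34413 per SMAD3 library, 82259 to 92714 per H3K27ac library and 54682 to 61297 per H3K9ac library. KRT7 and KRT19, keratins of cholangiocytes, held H3K27ac peaks in all 4 libraries, while CFTR and SPP1, also listed as cholangiocyte markers, held none. FOXJ1, the master factor of motile cilia, held no H3K27ac peak in any library and 393 to 685 bp of H3K9ac. TGFBI, a TGF-beta target, went from 526 and 913 bp of SMAD3 peaks with vehicle to 38247 and 29425 bp with TGF beta.

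RefSeq start sites and promoters (GRCh38.p14) were matched for 30 of the 33 genes, all but IFT22, BBS9 and TMEM67. The 250 bases before the start are printed 5′ to 3′ on the gene's strand for 6 genes. NPHP4, RPGRIP1L, IFT57, BBS1 and IFT88 are 5 genes with a peak difference at or near the start that is described below. INVS had the SMAD3 peak at the start with the highest mean rank of the 30. Within 2.5 kb of the start limma called only NPHP4, in SMAD3, and the 5 are not all the genes whose values differed there. Capitals mark GTTGCC, part of the X-box bound by RFX ciliogenic factors, CAGAC, the SMAD box, and CCAAT, the NF-Y box, on either strand.
NPHP4, chr1:5992426-5992675, minus strand: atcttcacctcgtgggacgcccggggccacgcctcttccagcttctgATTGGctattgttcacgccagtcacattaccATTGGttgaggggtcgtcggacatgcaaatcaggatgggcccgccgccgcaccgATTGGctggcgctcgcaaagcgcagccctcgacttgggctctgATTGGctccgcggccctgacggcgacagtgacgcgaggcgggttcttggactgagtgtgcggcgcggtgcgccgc
RPGRIP1L, chr16:53703860-53704109, minus strand: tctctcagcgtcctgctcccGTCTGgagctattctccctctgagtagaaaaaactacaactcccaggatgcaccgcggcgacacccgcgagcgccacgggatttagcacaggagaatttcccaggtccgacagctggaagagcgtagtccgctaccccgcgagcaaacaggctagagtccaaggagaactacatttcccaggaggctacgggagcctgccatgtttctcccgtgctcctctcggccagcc
IFT57, chr3:108222425-108222674, minus strand: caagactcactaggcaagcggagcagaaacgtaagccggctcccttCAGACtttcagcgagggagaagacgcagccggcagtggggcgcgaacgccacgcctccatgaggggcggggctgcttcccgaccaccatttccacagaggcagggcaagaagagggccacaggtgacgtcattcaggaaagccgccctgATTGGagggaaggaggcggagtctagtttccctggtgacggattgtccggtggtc
BBS1, chr11:66510385-66510634, plus strand: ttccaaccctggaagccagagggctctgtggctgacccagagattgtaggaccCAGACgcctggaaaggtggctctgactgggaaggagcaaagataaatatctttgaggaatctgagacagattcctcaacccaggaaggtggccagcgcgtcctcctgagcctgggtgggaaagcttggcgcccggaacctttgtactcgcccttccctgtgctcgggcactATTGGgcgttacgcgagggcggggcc
IFT88, chr13:20566907-20567156, plus strand: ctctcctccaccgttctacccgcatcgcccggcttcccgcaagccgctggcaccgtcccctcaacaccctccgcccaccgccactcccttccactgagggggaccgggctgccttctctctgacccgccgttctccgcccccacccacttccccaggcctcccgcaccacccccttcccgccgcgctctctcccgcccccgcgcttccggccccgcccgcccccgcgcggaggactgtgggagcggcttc
INVS, chr9:100098993-100099242, plus strand: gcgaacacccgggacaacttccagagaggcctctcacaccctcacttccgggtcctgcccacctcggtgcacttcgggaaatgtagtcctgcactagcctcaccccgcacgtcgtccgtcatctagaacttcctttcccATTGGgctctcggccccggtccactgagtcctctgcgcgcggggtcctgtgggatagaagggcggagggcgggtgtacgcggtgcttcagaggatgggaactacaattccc
The NPHP4 promoter held 4 CCAAT matches, all on the strand opposite to the printed one (read as ATTGG), between 203 and 71 bases before the start, and no CAGAC. The promoters of RPGRIP1L, IFT57 and BBS1 each held 1 CAGAC match, between 230 and 193 bases before the start. BBS1 and IFT88 had their GTTGCC match just after the start, outside the printed bases. Over the whole 300 bases from 250 before to 50 after the start, GTTGCC on either strand was in 9 of 30 promoters (30%) and in 12.6% of all 15812 promoters in the table. CAGAC was in 19 of 30 (63.3%) against 44.1% of all, CGTCA, part of the site of cAMP-response factors, in 17 of 30 (56.7%) against 29.4%, and CCAAT in 12 of 30 (40%) against 36.3%. CGTCA and CAGAC matches can share bases. The median GC content was 62.7% in both sets. These matches describe sequence only and were not tested.

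Nearly all of these genes carried SMAD3 and both acetylation marks at their start site, with vehicle as with TGF beta. A SMAD3 peak lay within 1 kb of the start in 29 of 30 genes in each of the 4 libraries, while 59.7% to 63% of all 15812 genes had one. H3K27ac was there in the same number, 29 of 30 in each library, against 61.9% to 62.7% of all genes. The exception was PKHD1, which encodes fibrocystin, in all SMAD3 and H3K27ac libraries; in H3K9ac it had a peak in 1 vehicle library only. Silent genes are among all genes, so this contrast describes a set of active promoters and shows nothing particular to cilia. At 10 of the 30 starts another gene began on the opposite strand within 1 kb, so a peak there belongs to both.

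Around these starts SMAD3 peaks lay at the start base more often than peaks of the acetylation marks. The start base itself lay inside a SMAD3 peak in 70% and 73.3% of the 30 genes with vehicle and in 80% and 90% with TGF beta, and inside an H3K27ac peak in 36.7% and 43.3% with vehicle, against 40% and 43.3% with TGF beta. H3K9ac covered it in 50% and 43.3% of the genes with vehicle, against 33.3% and 50% with TGF beta. At 500 bases downstream the order was reversed. There H3K27ac covered 80% and 83.3% of the genes with vehicle, H3K9ac 93.3% and 90%, and SMAD3 10% and 13.3%. All genes had the same order, with vehicle SMAD3 at 47.9% and 52.5% of start bases and at 18.7% and 26.5% of positions 500 bases downstream, where H3K27ac reached 52.9% and 53.9%. For the 30 genes the largest gap between the treatments at the 7 positions compared was that of SMAD3 at the start base. All genes also had higher SMAD3 shares with TGF beta, 53.9% and 55.2% at the start base and 31.7% and 32.7% at 500 bases downstream. The SMAD3 libraries with TGF beta listed more peaks, 33700 and 34413, against 22451 and 25268 with vehicle.

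**Figure D1:**
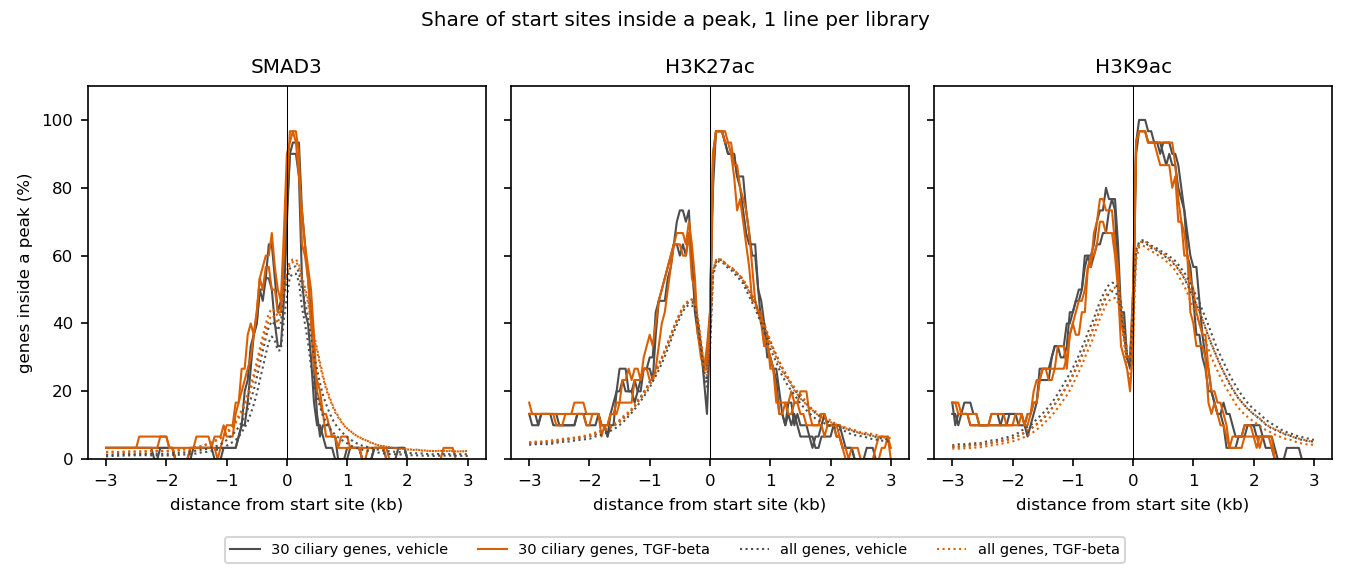
Share of start sites (percent, y axis) that lie inside a peak at each distance from the start site (kb, x axis), for SMAD3, H3K27ac and H3K9ac, with 1 line per library; solid lines are the 30 ciliary and polycystic genes with a start in the table, dotted lines all 15812 genes. Just after the start solid lines stand above dotted ones in all 3 panels, while at 500 bases downstream the SMAD3 solid lines (10% to 23.3%) are below the dotted ones (18.7% to 32.7%).

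The ranks of the start-site peaks by the authors' score, on a −log10 scale (p or q is not stated), spread widely within a library. In vehicle replicate 5 of SMAD3, INVS ranked 7.52% from the top and BBS12 69.7%. The median rank of the 29 genes was 40.5% and 32.1% from the top in the vehicle libraries and 26.8% and 25.4% with TGF beta. The lists differ in length, so these medians show no change. For H3K27ac the medians lay between 13.4% and 15.4%, and for H3K9ac between 14.6% and 15.2%.

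Few of the 33 genes passed the test for a change with TGF beta. Each target was fitted over all genes with limma on log2(peak length + 500 bp), with genes of at least 500 bp on average, each library centred on its median, and Benjamini-Hochberg adjustment at 0.05. For SMAD3, 0 of 29 tested genes rose and 1, NPHP4, fell (5 had an unadjusted limma p under 0.05), while 11.2% of 12508 genes rose and 1.68% fell. For H3K27ac, 2 of 33 rose, IFT81 and IFT43, and 3 fell, PKHD1, BBS12 and IFT57, with 14.8% of 13994 genes rising and 11.7% falling. In that mark 15 of the 33 had an unadjusted limma p under 0.05. For H3K9ac limma called 0 of 32 in either direction, with 5 at an unadjusted p under 0.05, while 4.25% of 14605 genes rose and 5.22% fell. The smallest p that exact permutation of 2 against 2 libraries allows is 0.333, so all calls rest on limma's spread shared over genes.

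Before centring, TGF-beta libraries had a median peak length that differed from vehicle by 0.32 on the log2 scale for SMAD3, 0.09 for H3K27ac and -0.09 for H3K9ac, and all changes are given relative to it. The median change of the 29 tested genes in SMAD3 was -0.10, beside -0.03 over all genes tested. Without centring it was 0.22, with 26 genes above 0 and 3 below and none called, beside a median of 0.29 over all genes. Of the calls over all SMAD3 genes 86.9% were rises with centring and 99.4% without it, for H3K27ac 55.9% and 74.0%, and for H3K9ac 44.9% and 32.3%. The median change of the ciliary genes was -0.08 in H3K27ac, beside -0.03 over all genes, and -0.03 in H3K9ac, beside 0.00. Uncentred SMAD3 lengths of 17 of the 29 genes were higher in both TGF-beta libraries than in both vehicle libraries, and those of 2 were lower, while the shares over all genes were 68.9% and 1.81%. For H3K27ac 10 genes stood above and 7 below (all genes 40.7% and 20.9%), and for H3K9ac 2 above and 13 below (9.4% and 40.9%).

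**Figure D2:**
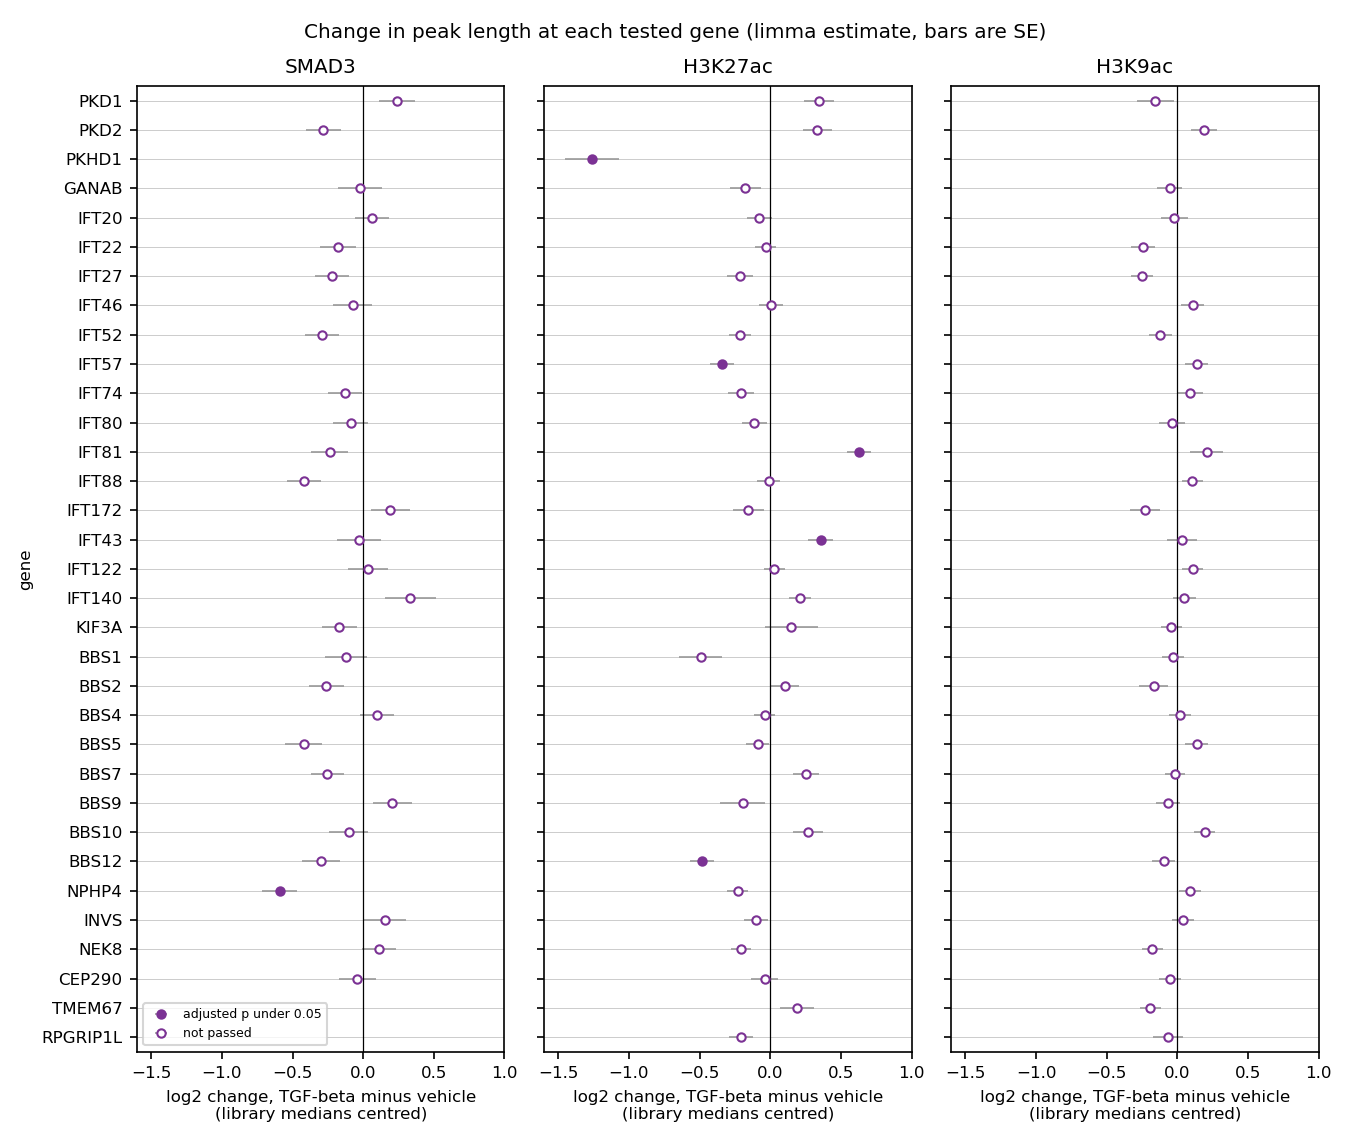
Change of peak length (log2, TGF-beta minus vehicle, x axis) for each tested gene (y axis) in the 3 targets; points are limma estimates, bars the SE, and filled points passed an adjusted p of 0.05. Filled points are NPHP4 for SMAD3 and PKHD1, IFT57, IFT81, IFT43 and BBS12 for H3K27ac, and the H3K9ac panel has none.

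Among the polycystic disease genes, PKHD1 lost H3K27ac peak length, and the other 3 passed the test in no target of the main fit. PKHD1 (chr6:51615299-52087615) held 757 and 1004 bp of H3K27ac with vehicle and 0 and 242 bp with TGF beta. Both vehicle libraries lay above both TGF-beta libraries. The change was -1.26 (SE 0.19) on the log2(bp + 500) scale with an adjusted p of 0.00396 in limma. The mean was 880.5 bp with vehicle and 121 bp with TGF beta, so PKHD1 passed the 500-bp filter only through its vehicle libraries. That filter and the test used the same values, which limits what the p-value shows. All of the peak length lay inside the gene, in more than 1 region. A region at chr6:52077993-52078390, centred 9.42 kb after the start, was called in both vehicle libraries with scores of 4.01 and 9.18 and in neither TGF-beta library. These scores are below the median of their libraries, 12.2 and 12.8. A further region was partly kept. It ran from 10179 to 10703 and from 10376 to 10713 bases after the start with vehicle. In TGF-beta replicate 2 it ran from 10376 to 10617, and replicate 1 had no peak. Vehicle replicate 2 also had a peak from 21948 to 22215 bases after the start. PKHD1 held no SMAD3 peak in any library, and H3K9ac was 230 bp in 1 vehicle library and 0 in the other 3. With peaks of a score under 5 left out, or without either vehicle library, PKHD1 had too little peak length to be tested.

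PKD1, which encodes polycystin-1, a large receptor-like membrane protein (chr16:2088708-2135898), held 442 and 754 bp of SMAD3 with vehicle and 1078 and 1132 bp with TGF beta. Its H3K27ac was 3114 and 3866 bp with vehicle and 5321 and 4439 bp with TGF beta, and its H3K9ac 4275 and 3248 bp against 2523 and 3690 bp. The treatments did not overlap in SMAD3 and H3K27ac and overlapped in H3K9ac. Relative to all genes, the log2 changes were 0.24, 0.35 and -0.16 with limma adjusted p of 0.233, 0.0562 and 0.532. A SMAD3 region 7.32 kb inside the gene (chr16:2128399-2128768) was called in both TGF-beta libraries only, with scores of 3.22 and 10.3, and lay over both acetylation marks. An H3K27ac region 5.6 kb inside it was gained too. PKD1 has near-identical pseudogene copies on the same chromosome, so the placement of reads there is uncertain. In other settings the H3K27ac rise of PKD1 was called in 5, not called in 10 and reversed in 1. With 50 kb on each side its H3K27ac change was -0.33, adjusted p = 0.0134 in limma, so the direction depends on the window. H3K9ac at PKD1 was called in 2 other settings and not in 14. It fell by limma with 50 kb (-0.41, adjusted p = 0.0063) and with peaks of a score of at least 5 (-0.46, adjusted p = 0.0297).

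PKD2, the polycystin-2 channel (chr4:88007635-88077777), held 841 and 762 bp of H3K27ac with vehicle and 1133 and 1358 bp with TGF beta. The groups did not overlap, and the log2 change of 0.33 (SE 0.10) had a limma adjusted p of 0.0587. Among other settings 3 called this rise and 12 did not. An H3K27ac region of 547 bp, 10.1 kb after the start, was gained. SMAD3 at PKD2 was 846 and 944 bp with vehicle and 958 and 907 bp with TGF beta, and H3K9ac 1708 and 1256 bp against 1505 and 1715 bp. GANAB, the glucosidase II subunit that matures polycystin-1 in the endoplasmic reticulum, had SMAD3 lengths of 2769 and 2965 bp against 4211 and 3128 bp. Its acetylation was among the densest, at 17.1% of the window in H3K27ac and 17.1% in H3K9ac with vehicle. None of its 3 changes passed the test, with log2 values of -0.02, -0.18 and -0.06. A gained H3K27ac region of 150 bp lay beyond the end of GANAB.

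Of the 11 IFT-B genes 2 were called in H3K27ac, IFT81 and IFT57, beside 26.4% of all genes tested. None was called in SMAD3 or H3K9ac, where 12.8% and 9.47% of all genes were. The SMAD3 log2 changes of the IFT-B genes ran from -0.42 to 0.19 with a median of -0.15, beside -0.03 over all genes. Of the 10 tested 8 were below 0, as were 54.1% of all genes. In H3K9ac the 11 ran from -0.25 to 0.21. IFT88, a core IFT-B protein whose loss stops cilium growth, was at the low end with 1042 and 1212 bp of SMAD3 with vehicle and 1013 and 1020 bp with TGF beta. It was 1 of 2 genes whose SMAD3 length was lower in both TGF-beta libraries, and its adjusted p in limma was 0.0518. A 161-bp H3K9ac region 1.03 kb before its start was gained, with scores of 3.79 and 4.35.

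IFT81, which binds tubulin together with IFT74, gained H3K27ac. It held 724 and 925 bp with vehicle and 1658 and 1686 bp with TGF beta, so the groups were far apart. The log2 change was 0.63 (SE 0.08) with a limma adjusted p of 0.00243. The added length was not at the start. A pair of regions, chr12:110223988-110224375 and chr12:110224488-110225002, appeared in both TGF-beta libraries beyond the far end of the gene, 99.8 and 100.4 kb after its start, with scores from 7.74 to 11.4. No SMAD3 peak lay over them. H3K27ac within 2.5 kb of the start changed by -0.09 and with a flank of 2.5 kb the gene's change was 0.02, so the call is that of the distant pair.

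IFT57, an IFT-B subunit that contacts the kinesin motor, fell in H3K27ac, with a call that several settings ended. It held 879 and 1065 bp with vehicle and 803 and 668 bp with TGF beta, without overlap. The log2 change was -0.34 (SE 0.09), adjusted p = 0.0282 in limma. Its H3K9ac moved little, with 1667 and 1309 bp against 1414 and 1677 bp. The difference between the marks, H3K27ac change minus H3K9ac change, was -0.47 (log2) with a limma adjusted p of 0.0406, and IFT57 was the only 1 of 32 genes called in that term, in which 7.55% of 13600 genes passed. Scores of the upstream region at the start went the other way, 4.84 and 4.42 with vehicle, against 13.1 and 20.8 with TGF beta. With peaks of a score under 5 left out the H3K27ac change was 0.13, adjusted p = 0.547, and within 2.5 kb of the start it was -0.29, adjusted p = 0.113. The adjusted p was 0.0935 with equal peak numbers, 0.134 without centring, 0.0712 with limma's trend and robust options, 0.0957 without vehicle replicate 2 and 0.152 without TGF-beta replicate 2. The difference between the marks had an adjusted p of 0.119 with equal peak numbers and 0.333 without centring. SMAD3 at IFT57 was 186 and 262 bp against 189 and 374 bp, too little to be tested.

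IFT20, IFT80, IFT22, IFT27, IFT46, IFT52, IFT74 and IFT172 passed in no target. IFT20, which carries cargo from the Golgi, stood out by its SMAD3 region upstream, chr17:28345345-28346585, called in both TGF-beta libraries only. Its SMAD3 length was 1753 and 2005 bp with vehicle and 2690 and 2505 bp with TGF beta, a log2 change of 0.06 relative to all genes. H3K27ac at IFT20 was 5765 and 6984 bp against 6610 and 6187 bp, with 1 small region lost just past the gene's end. IFT80 held 4920 and 4515 bp of H3K27ac against 4774 and 4475 bp, and gained a 355-bp region 4.93 kb before its start. IFT22, IFT27, IFT52 and IFT80 had lower H3K9ac in both TGF-beta libraries than in both vehicle libraries, as did 40.9% of all genes, with log2 changes of -0.24, -0.25, -0.12 and -0.04.

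Of the IFT-A genes, which serve return transport, IFT43 gained H3K27ac, and the log2 changes of all 3 in that mark were above 0. Of all genes tested in H3K27ac 55.6% were below 0. IFT43 (chr14:75985763-76084073) held 1895 and 1805 bp with vehicle and 2577 and 2821 bp with TGF beta. The log2 change was 0.36 (SE 0.09), adjusted p = 0.0285 in limma. A 407-bp region 2.92 kb inside the gene was gained, and the region 3.87 kb inside had scores of 4.5 and 5.13 with vehicle, against 23.9 and 18.6 with TGF beta. Within 2.5 kb of the start the change was 0.06. The window also holds the start of TGFB3, a TGF-beta ligand gene, whose H3K27ac region was present in all 4 libraries with scores from 55.1 to 70.2.

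IFT140 held 5094 and 5039 bp of H3K27ac with vehicle and 6480 and 6215 bp with TGF beta, without overlap, a log2 change of 0.21 with adjusted p = 0.0884. A pair of regions 7.98 and 9.38 kb before its start was gained, in the direction of CRAMP1, which starts on the opposite strand. SMAD3 at IFT140 was 1107 and 2252 bp against 2807 and 2805 bp. IFT122 had the highest H3K27ac share of window among IFT-A genes, 10.4% with vehicle and 11.3% with TGF beta. KIF3A, the motor subunit of kinesin-II, held 1080 and 573 bp of H3K27ac with vehicle and 1030 and 1041 bp with TGF beta. The vehicle libraries differed more from each other than the treatments did, and the 1 gained region lay at the start of the neighbouring CCNI2.

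None of the 6 BBSome genes passed the test, beside 12.8%, 26.4% and 9.47% of all genes in SMAD3, H3K27ac and H3K9ac. BBS12 of the chaperonin-like genes lost H3K27ac. BBS12 (chr4:122700442-122744939) held 2321 and 2620 bp with vehicle and 1904 and 1612 bp with TGF beta. The log2 change was -0.48 (SE 0.09), adjusted p = 0.00771 in limma. The 3 regions called in both vehicle libraries and neither TGF-beta library were centred 32.6 kb before and 11.5 and 12.1 kb after the start. The regions at the start were kept, with scores of 30.7 and 37.7 with vehicle, against 58.1 and 56.2 with TGF beta in the larger. SMAD3 over the whole window was 490 and 775 bp against 533 and 760 bp, while the SMAD3 peak at the start had scores of 4.95 and 9.55 against 43.6 and 29.7. H3K27ac within 2.5 kb of the start changed by -0.08, and with 50 kb on each side the gene's change was 0.28, adjusted p = 0.0263, so its direction depends on the window.

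BBS10 and BBS7 moved the other way in values without passing. BBS10 held 3155 and 2942 bp of H3K27ac against 3758 and 4333 bp, a log2 change of 0.27 with adjusted p = 0.107, with 2 H3K27ac regions and 1 H3K9ac region gained within 6.9 kb of the start. BBS7 held 2798 and 2664 bp against 3431 and 3759 bp, a log2 change of 0.25 with adjusted p = 0.0869, and a gained pair of regions past its far end. BBS1, a BBSome core subunit, had the lowest H3K27ac change of the BBSome genes, with 1168 and 861 bp against 786 and 508 bp, that is, -0.49 (SE 0.15) on the log2 scale with adjusted p = 0.0564. The H3K9ac region just before the BBS1 start, chr11:66510332-66510522, overlaps the promoter printed above and was called with scores of 17.5 and 13.5 with vehicle and in neither TGF-beta library. Total H3K9ac at BBS1 was 973 and 862 bp against 703 and 911 bp, which overlap. BBS5 was at the low end for SMAD3, with 669 and 695 bp against 529 and 683 bp, adjusted p = 0.0726.

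NPHP4, a transition-zone scaffold gene (chr1:5862811-5992425), was the only gene of the 33 called for SMAD3. Its peak length was 725 and 777 bp with vehicle and 498 and 576 bp with TGF beta, so both TGF-beta libraries were lower while the genome-wide median rose. The log2 change was -0.59 (SE 0.12), adjusted p = 0.0157 in limma, and -0.27 with adjusted p = 0.184 without centring. Both SMAD3 regions at the start were kept in all 4 libraries. The upstream one narrowed: it ran from 808 to 284 and from 717 to 204 bases before the start with vehicle and from 544 to 284 and from 547 to 247 with TGF beta. Its scores did not fall, with 14.1 and 28.6 against 33.4 and 29.5. The region is shared with KCNAB2, which starts on the opposite strand. The call was lost with equal peak numbers per library (adjusted p = 0.055) and without vehicle replicate 4 (adjusted p = 0.0927).

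RPGRIP1L, the transition-zone protein that anchors NPHP4, gained a SMAD3 region at its start. Its SMAD3 length was 164 and 240 bp with vehicle and 518 and 707 bp with TGF beta. All 4 libraries had a peak upstream, and both TGF-beta libraries had a second one over the start, chr16:53703638-53703910, with scores of 21.6 and 41.4. Mean peak length was under 500 bp, so the gene was not tested. The start is shared with FTO on the opposite strand. H3K27ac at RPGRIP1L was 962 and 1015 bp against 962 and 779 bp and overlapped.

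**Figure D3:**
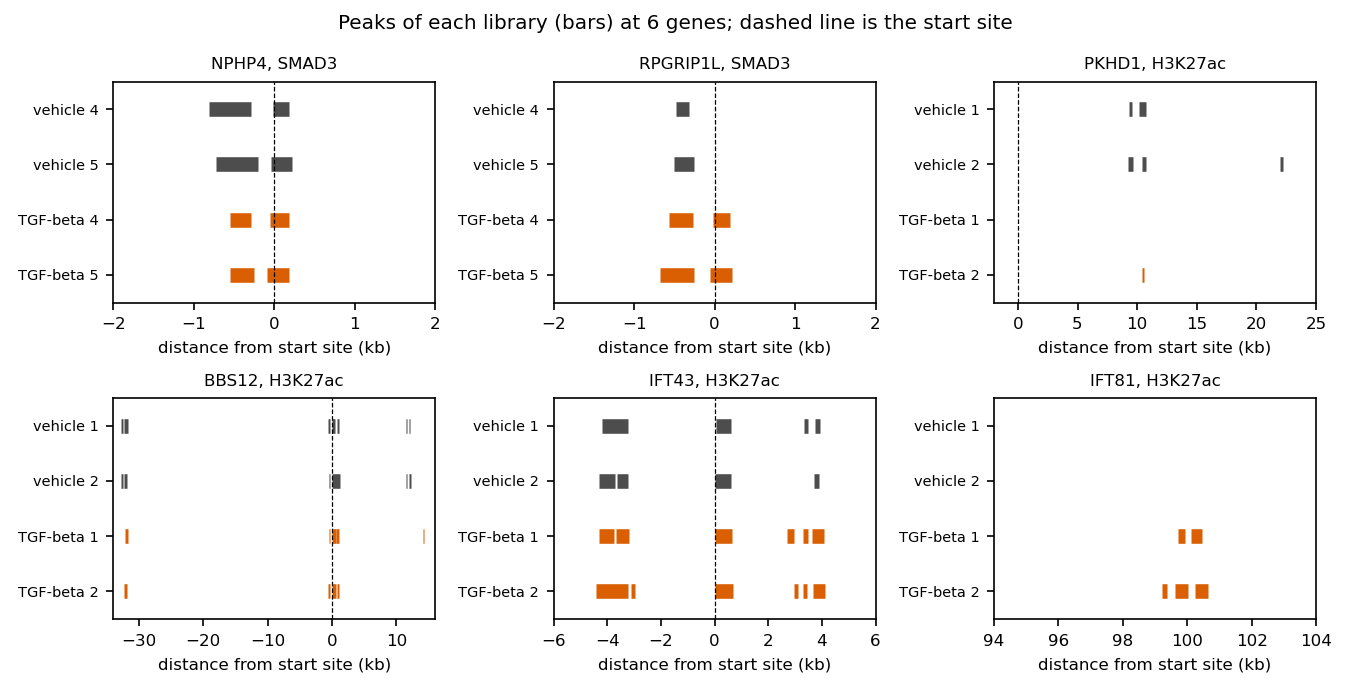
Peaks of each library (bars, 1 row per library, vehicle in grey and TGF-beta in orange) by distance from the start site (kb, x axis) at 6 genes; the dashed line is the start. SMAD3 narrows upstream of NPHP4 and gains a bar over the RPGRIP1L start, while the H3K27ac differences at PKHD1, BBS12, IFT43 and IFT81 lie away from the start.

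The remaining genes of this group changed little. NEK8, a kinase of the inversin compartment, had the densest window, with 19.6% in SMAD3 peaks and 55.5% in H3K27ac peaks with vehicle, and the window holds the starts of TLCD1 and TRAF4. Its SMAD3 was 5918 and 7650 bp against 8902 and 9638 bp, its H3K27ac 18698 and 19792 bp against 17935 and 17439 bp, and its H3K9ac 17005 and 16392 bp against 12989 and 14571 bp. Relative to all genes these were log2 changes of 0.11, -0.21 and -0.18, and none passed. All its gained and lost regions, 2 SMAD3 gains and 1 loss in each target, lay beyond the gene's end. INVS, which encodes inversin, had SMAD3 of 791 and 835 bp against 1512 and 1154 bp, a log2 change of 0.15 with adjusted p = 0.496. CEP290 and TMEM67, genes of the zone's links and membrane, had log2 changes between -0.19 and 0.19 in every target in which they were tested.

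**Figure D4:**
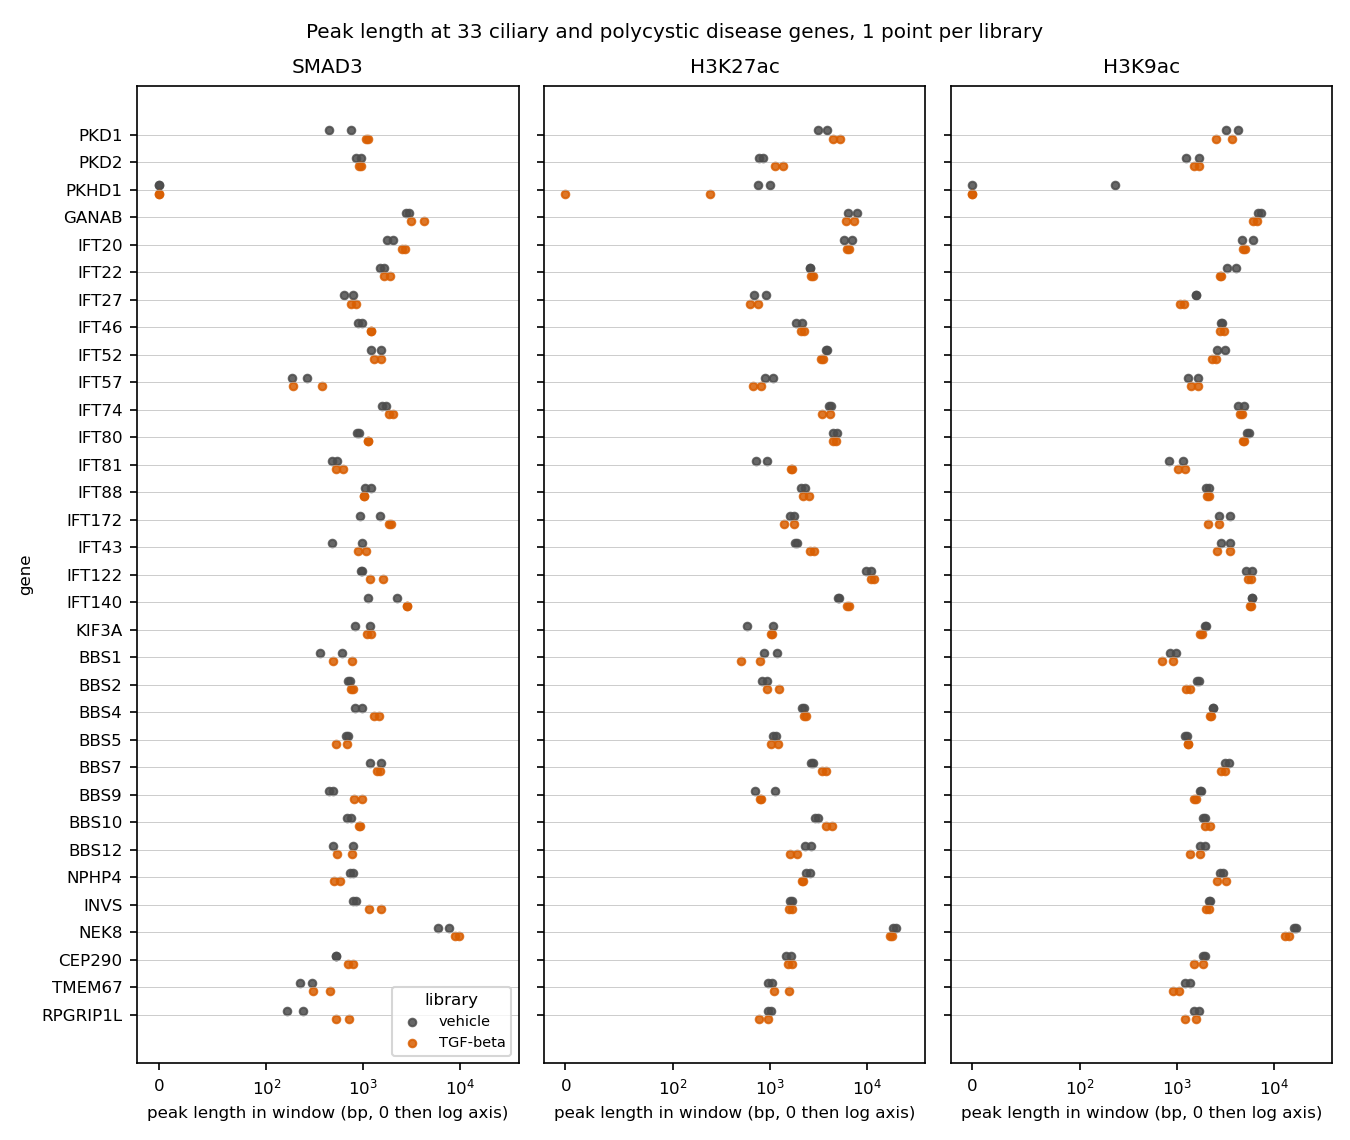
Peak length in the gene window (bp, x axis, 0 and then a log scale) of each gene (y axis) in the 3 targets, 1 point per library, grey for vehicle and orange for TGF-beta. Both TGF-beta points lie right of both vehicle points for 17 of 29 tested genes in SMAD3, beside 68.9% of all genes tested. They lie left of them for 13 of 32 in H3K9ac, beside 40.9% of all genes tested. PKHD1 is the only gene with points at 0.

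Most SMAD3 regions at these genes were present with and without TGF beta. Merged over the 4 libraries, the windows held 103 SMAD3 regions, of which 58 (56.3%) were called in all 4, 5 (4.85%) only in both TGF-beta libraries and 1 (0.971%) only in both vehicle libraries. Over the windows of all genes 43.9% were in all 4, 12.7% were gained and 0.632% lost. At start sites lay 58 of the 103, and 87 overlapped an H3K27ac region. The H3K27ac windows held 178 regions, 14 gained (7.87%) and 6 lost (3.37%), beside 10.8% and 4.37% in all gene windows. Of those 20 regions 13 gained and 6 lost lay away from any start site, and 59 of 67 regions at starts were in all 4 libraries. H3K9ac had 128 regions, 2 gained and 2 lost (1.56% each), beside 4.27% and 5.81%. H3K27ac within 2.5 kb of the start was called for 0 of 28 genes by limma, with 2 at an unadjusted p under 0.05, while 6.09% of 9514 genes were called.

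Other genes of the same machinery, from lists that leave out the 33, changed at single loci in H3K27ac. Of 20 other transport and motor genes, all tested, 1 rose and 3 fell, beside 14.8% and 11.7% of all genes. KIFAP3, the adaptor of kinesin-II, held 2234 and 2297 bp with vehicle and 765 and 1053 bp with TGF beta (log2 -1.07, adjusted p = 0.00119 in limma), though within 2.5 kb of its start the change was 0.03. IFT25 held 5625 and 5488 bp against 2590 and 2935 bp (log2 -0.98, adjusted p = 0.000686). KIF3B, the partner of KIF3A, rose from 3118 and 3648 bp to 5998 and 5176 bp, but not within 2.5 kb of its start, where the change was -0.18. Of 6 other BBS genes MKKS rose by 0.72 and CCDC28B fell by 0.33 on the log2 scale in H3K27ac, and CCDC28B rose by 1.09 in SMAD3. Both CCDC28B values turned with the settings, to 0.35 in H3K27ac with 50 kb on each side and to -0.04 in SMAD3 with equal peak numbers.

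Of 22 other transition-zone and nephronophthisis genes 5 rose and 0 fell in H3K27ac, beside the 14.8% of all genes that rose and the 11.7% that fell. SDCCAG8 was the largest, from 4104 and 4267 bp to 8360 and 7933 bp (log2 0.80, adjusted p = 0.000602 in limma), and TMEM237 rose by 0.41; within 2.5 kb of their starts both were below 0 (-0.05 and -0.11). GLIS2, a transcription factor mutated in nephronophthisis, rose in SMAD3 from 1826 and 2306 bp to 6341 and 5716 bp (log2 1.03). Of 21 centriole and ciliogenesis genes FBF1 (0.92, but -0.18 within 2.5 kb of its start) and CEP89 (0.76) rose and EHD1 fell in H3K27ac, and RAB8A rose in SMAD3 by 0.86.

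The list of other polycystic kidney and liver disease genes had 3 of 13 tested genes rising in SMAD3, 4 of 14 rising and 1 falling in H3K27ac, and 4 of 15 rising in H3K9ac. Over all genes 11.2% rose in SMAD3, 14.8% rose and 11.7% fell in H3K27ac, and 4.25% rose in H3K9ac. DZIP1L, whose mutation gives recessive polycystic kidney disease, rose in all 3 targets, with SMAD3 going from 731 and 1213 bp to 2974 and 3349 bp (log2 1.01, adjusted p = 0.00202 in limma). PKD2L1, a polycystin-2 paralogue, also rose in all 3. ALG9 fell by 0.30 in H3K27ac. The median change of that list in H3K27ac was -0.04, beside -0.03 over all genes.

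Among genes that act through the cilium, 4 of 12 tested Hedgehog pathway genes rose and 1 fell in H3K27ac, where 14.8% and 11.7% of all genes did. GLI2, the main Hedgehog activator, rose in SMAD3 from 976 and 1642 bp to 6619 and 5684 bp (log2 1.58, adjusted p = 0.000406 in limma), in H3K27ac by 0.70 and in H3K9ac by 0.57. PTCH1, the Hedgehog receptor, fell by 0.36 in H3K27ac. Of 13 tested genes of cilium disassembly and tubulin modification 3 rose and 2 fell in H3K27ac, beside 14.8% and 11.7% of all genes. NEDD9, a scaffold that activates Aurora A in cilium disassembly, rose in SMAD3 by 1.41, in H3K27ac by 0.60 and in H3K9ac by 0.66, while in H3K27ac AURKA fell by 0.45 and HDAC6, the cilium's tubulin deacetylase, rose by 0.33, though not at its start (-0.01). Of 8 tested genes of cholangiocyte ciliary receptors and their signalling 2 rose and 2 fell in H3K27ac, beside 14.8% and 11.7% of all genes. Of the 15 listed, 4 held no H3K27ac peak in any library. SCTR, the secretin receptor, rose in H3K27ac from 1773 and 2126 bp to 8984 and 9607 bp (log2 1.92), and TRPV4, the osmosensing channel, by 1.40. RAPGEF3, the cAMP effector EPAC1, fell from 6686 and 7943 bp to 2494 and 2543 bp (log2 -1.46). Of 9 tested ciliogenic factors 2 rose and 1 fell in H3K27ac, beside 14.8% and 11.7% of all genes. TP73 rose in that mark from 299 and 461 bp to 3695 and 3397 bp and RFX2 from 1699 and 1764 bp to 6569 and 5849 bp, while RFX4 fell by 0.41. Both vehicle values of TP73 were under 500 bp, so TP73 passed the 500-bp filter only through its TGF-beta libraries. That filter and the test used the same values, which limits what its call shows.

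**Figure D5:**
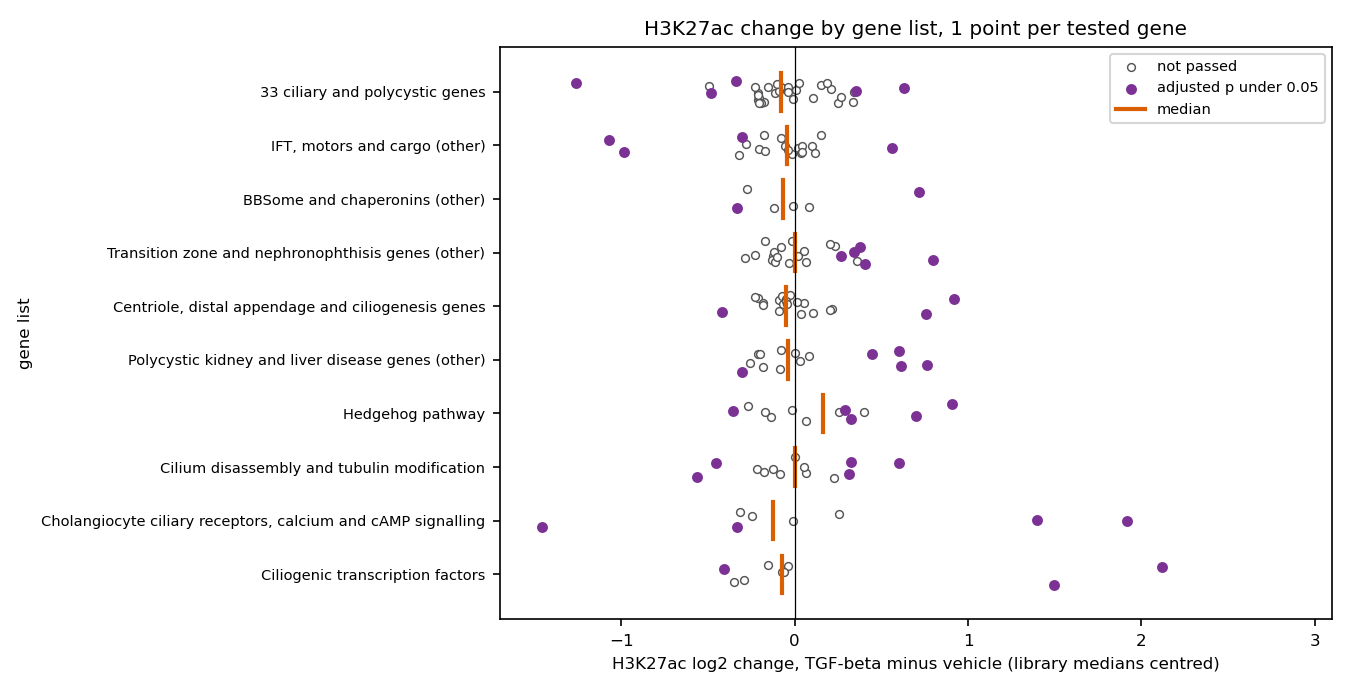
H3K27ac change (log2, TGF-beta minus vehicle, x axis) of each tested gene by list (y axis), the 33 ciliary and polycystic genes on top; filled points passed an adjusted p of 0.05 in limma and the bar is the list's median. The 33 genes lie between -1.26 and 0.63, and the widest spread is in the lists of cholangiocyte receptors and ciliogenic factors.

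Among markers of the cell type, KRT19 H3K27ac fell from 7733 and 8042 bp to 6381 and 5068 bp (log2 -0.53, adjusted p = 0.0117 in limma), and KRT7 H3K27ac was 22030 and 23346 bp against 21965 and 22373 bp. Summed over 13 cholangiocyte markers, H3K27ac was 89.2 and 96.5 kb with vehicle and 87.5 and 87.2 kb with TGF beta, with 2 of the 13 at 0 in all libraries. Of 10 mesenchymal and endothelial markers the sum was 38.9 and 39.8 kb against 48.0 and 45.9 kb, and DCN and DES were at 0. Hepatocyte markers summed to 18.01 and 20.91 kb against 22.5 and 20.7 kb, with ALB and TTR at 0, and leukocyte markers to 24.5 and 26.4 kb against 31.3 and 31.9 kb, with ITGAM at 0. Motile cilium markers summed to 33.9 and 37.0 kb against 40.2 and 38.7 kb. The sums here are not centred. All H3K27ac peaks together covered 54.69 and 59.08 Mb with vehicle and 65.13 and 63.76 Mb with TGF beta. The 33 ciliary genes summed to 99.2 and 104.6 kb against 108.4 and 102 kb. The part of any of these shifts in the changes above was not tested.

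For H3K27ac and H3K9ac, TGF-beta replicate 2 was read on another sequencing lane, 8, than the other 3 libraries of each mark, on lane 7, by the file headers; all SMAD3 libraries were on lane 8. Within lane 7, that is, without that library, the H3K27ac log2 changes were -1.57 at PKHD1, 0.60 at IFT81 and -0.41 at BBS12. PKHD1 held 242 bp in the library left out and 0 bp in the TGF-beta library kept. Its larger fall was thus fixed in advance and is no further support. IFT43 (0.28) and IFT57 (-0.28) were no longer called. In these fits the lone TGF-beta library is assumed to vary like the other group.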

How the data were processed

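ChIP-seq was done on H69 cells with antibodies to H3K27ac, H3K9ac and SMAD3, with 2 libraries per treatment; of 16 samples, 12 peak lists were used and 4 inputs were not analysed here. The build was hg38, with bedtools, MACS2, Picard and BWA named in the submitters' processing notes; versions and settings: not given in the sources used here. Deposited files list peak positions with a score on the −log10 scale of a p-value from MACS2, as the authors deposited them, per the file headers and the values; whether it is a p- or q-value is not stated. There is 1 peak list per library. Peak length per gene was computed over RefSeq spans (GRCh38.p14) with 10 kb on each side and fitted with limma 3.58.1 (R 4.3.3) on log2(bp + 500), after a filter of 500 bp on the mean and median centring over genes covered in all 4 libraries, with Benjamini-Hochberg adjustment over all genes; the fit was tested on simulated data. Regions were merged at an overlap of 1 bp and called gained (both TGF-beta libraries, no vehicle library) or lost (the reverse). Python 3.11.15 was used. The 33 genes and the gene lists were chosen with earlier results of these data known. Values were given for the 4 polycystic genes, every called gene and every gene with a gained or lost region, and for up to 2 listed genes past the threshold in each direction per list and target by size. A listed gene that this rule selects is not reported here.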

Additional observations from a re-analysis of the deposited data

Results flagged for a closer look

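The change of IFT57, an IFT-B subunit gene, differed between the acetylation marks: the H3K27ac change minus the H3K9ac change was -0.475 (log2, limma, adjusted p = 0.0406). H3K27ac was lower in both TGF-beta libraries than in both vehicle libraries, and H3K9ac overlapped. Of 16 other settings 3 kept the call, and in the rest the adjusted p ran from 0.0564 to 0.333.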

How the results depend on the processing

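For 74 pairs of a gene with a target or with the difference between the marks, 1131 values under other settings were compared with the main fit. Of these 971 kept the call or its absence, 130 lost the call, 14 gained a call and 16 were reversed. A value counted as reversed only where its sign turned and either fit called it. Uncalled values among the 971 can therefore differ in sign. Where no cause is given, it was not tested. With 50 kb on each side the number of genes called was 3021 for SMAD3, 6019 for H3K27ac, 2316 for H3K9ac and 1649 for the difference between the marks, and 3, 10, 2 and 2 of the 33 ciliary genes were called. Over all genes tested the shares called were 20.3%, 37%, 14.1% and 10.4%. Within 2.5 kb of the start 351, 579 and 349 genes were called (4.03%, 6.09% and 3.37%), and 1, 0 and 0 ciliary genes. With 50 kb, H3K27ac reversed to -0.331 at PKD1, 0.279 at BBS12, 0.350 at CCDC28B and -0.165 at TMEM237. At the start it reversed to -0.087 at IFT81, -0.177 at KIF3B, 0.027 at KIFAP3, -0.109 at TMEM237, -0.048 at SDCCAG8, -0.175 at FBF1 and -0.006 at HDAC6. A flank of 2.5 kb gave -0.147 at TMEM237, -0.213 at FBF1 and -0.044 at HDAC6.

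With equal peak numbers per library SMAD3 had 712 genes called (5.81%), 0 of them ciliary, and CCDC28B reversed to -0.038. The difference between the marks then had 0 ciliary calls, beside 7.5% of all genes, and 3 SMAD3 and 9 H3K27ac regions were gained. A minimum score of 5 reversed IFT57 in H3K27ac to 0.125, added 1 ciliary call in H3K9ac (PKD1) and left 3 gained and 0 lost SMAD3 regions and 1 gained and 4 lost H3K9ac regions. A mean of at least 2000 bp left 0 ciliary SMAD3 calls, since NPHP4 is then not tested, and the trend and robust options of limma gave 2 (NPHP4 and IFT88). Over all genes 32.6% and 11.9% were called. A pseudocount of 2000 bp gave 9 ciliary H3K27ac calls, where 31.1% of all genes were called. Without centring there were 0 ciliary calls for SMAD3, 9 for H3K27ac and 0 for the difference, beside 14.7%, 24.2% and 8.38% of all genes. For H3K9ac 557 genes were then called. A pseudocount of 100 bp and no filter on length each gave 0 ciliary calls for the difference, beside 6.08% and 6.96% of all genes.

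With 1 library left out, genes called ranged from 789 (without vehicle replicate 4) to 1814 for SMAD3, from 2383 (without TGF-beta replicate 2) to 3230 for H3K27ac, from 899 (without TGF-beta replicate 1) to 1546 for H3K9ac and from 511 (without TGF-beta replicate 1 of H3K9ac) to 973 for the difference. Ciliary calls ranged from 0 to 2, 3 to 7, 0 to 0 and 0 to 2. Gained regions ranged from 5 to 21 for SMAD3, 18 to 34 for H3K27ac and 2 to 9 for H3K9ac, and lost ones from 1 to 4, 8 to 20 and 3 to 18, since fewer libraries then had to agree. Libraries share only their replicate numbers, with 2 pairs, so a replicate block was an alternative only. With the replicate block 1, 6 and 0 ciliary genes were called for SMAD3, H3K27ac (adding BBS1) and H3K9ac, and 0 for the difference, where IFT57 had an adjusted p of 0.0593 in limma. The shares of all genes called with the block were 13.4%, 26.2%, 11.7% and 6.9%. The number and width of peaks move with sequencing depth, which is not known here, and 2 libraries a group leave small changes undetected.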
